A study of Mus musculus with 45 samples.

Results

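CCR2 is a chemokine receptor, and Ccl2, Ccl7, Ccl8 and Ccl12 encode ligands of it in the mouse. These 5 genes were taken by symbol out of 27179 genes in the count table and were followed over all 45 RNA-seq libraries, which form 22 groups. The receptor was read mainly in sorted T cells and type 2 innate lymphoid cells (ILC2), and the ligands mainly in sorted stroma, adipocytes and whole fat.

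All mice were C57BL/6, were 25 weeks old where an age is given, and were pooled by 3 to 5 per library; the spleen reporter regulatory T cells (Treg) have no age. Foxp3RFP reporter mice of both sexes gave RFP+ Treg from visceral adipose tissue (VAT) and spleen and RFP- conventional CD4 T cells from VAT, with 2 libraries per sex and cell type. Male Blimp1fl/flFoxp3cre mice, in which a Cre driven by Foxp3 deletes the transcription factor Blimp1 in Treg, gave 2 VAT and 2 spleen libraries. Their Foxp3cre controls, also male, carry the same Cre and gave 1 VAT library and 2 spleen libraries. The source text of that single VAT control names spleens, whereas its title and tissue field name VAT, and 1 of the VAT libraries of Blimp1fl/flFoxp3cre mice lacks the YFP+ gate that the others state. ILC2 were sorted from VAT as lineage-negative cells positive for CD25, ST2 and KLRG1 (2 libraries per sex). Stroma negative for CD45 and Ter119 was sorted from VAT into GP38-positive and GP38-negative cells (2 libraries per sex and fraction). VAT adipocytes are what remained after removal of the stromal vascular fraction (2 per sex), and whole fat came from VAT (3 per sex) and from inguinal subcutaneous fat (2 per sex). The titles of the whole VAT libraries carry the tag ND, which the titles of the other groups do not. VAT was epididymal in males and periovarian in females, so sex and anatomical pad cannot be told apart. Nothing names animals shared between groups, and p-values measure the spread between these pools.

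As background, CCR2 is a receptor coupled to inhibitory G proteins that directs monocytes and some lymphocytes toward its ligands. CCL2, also called monocyte chemoattractant protein, is made by stromal cells, adipocytes and macrophages, often after inflammatory signals that act through NF-kappaB. In obese fat the pair is best known for bringing monocytes that become macrophages. VAT Treg are a tissue population marked by ST2, KLRG1 and Gata3.

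The library totals ran from 4956080 to 61913009 assigned reads. Levels are given as CPM, the reads of a gene scaled to a common total of assigned reads per library, and log2 fold changes come from edgeR fits across all genes, with a gene called at an adjusted p under 0.05. Foxp3 was at 604 to 754 CPM in male and 429 to 499 CPM in female VAT Treg, at 0 and 4.53 CPM in male VAT CD4 cells, and had 0 reads in both female VAT CD4 libraries. GP38-positive stroma matched its label, with summed CPM of 42940 to 48400 for 7 fibroblast markers and at most 11.5 for 5 B cell markers. GP38-negative stroma did not match a CD45-negative gate cleanly. It held B cell markers at 2064 to 2969 CPM, T cell markers at 169 to 856 CPM and adipocyte markers at 1549 to 3326 CPM.

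The 4 ligand genes lie side by side on chromosome 11 within 81223 bases in GRCm38.p6, on RefSeq coordinates. Ccl2 occupies chr11:82035577-82037452, Ccl7 chr11:82045712-82047525, Ccl12 chr11:82101845-82103399 and Ccl8 chr11:82115185-82116799. Ccl11, a ligand of CCR3, lies between Ccl7 and Ccl12. Ccr2 occupies chr9:124101918-124109140. Among annotated transcripts of the ligand genes the longest exact shared run was 23 bases, between Ccl2 and Ccl7. Ccr2 shared at most 16 bases with Ccr1 and 17 bases with Ccr3.

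RefSeq promoter windows, from 250 bases before to 50 bases after the start, were at hand for 3 of the 5 members, Ccr2, Ccl8 and Ccl12. The 250 bases before the start of Ccl8 and Ccl12 are shown because both genes were lower in male adipocytes than in male whole VAT, and capitals mark the one motif found in them. Both are on the plus strand of GRCm38.p6, Ccl8 at chr11:82114935-82115184 and Ccl12 at chr11:82101595-82101844.
Ccl8: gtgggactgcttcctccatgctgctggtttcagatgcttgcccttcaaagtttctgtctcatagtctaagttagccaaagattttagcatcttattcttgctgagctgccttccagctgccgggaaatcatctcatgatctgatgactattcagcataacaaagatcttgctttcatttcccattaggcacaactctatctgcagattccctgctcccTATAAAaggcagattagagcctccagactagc
Ccl12: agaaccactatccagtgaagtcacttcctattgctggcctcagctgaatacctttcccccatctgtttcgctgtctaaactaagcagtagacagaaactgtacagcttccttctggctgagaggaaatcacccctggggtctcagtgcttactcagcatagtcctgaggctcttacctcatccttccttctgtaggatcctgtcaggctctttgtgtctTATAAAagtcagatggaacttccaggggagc
The capitals mark TATAAA, the TATA box letters, which begin at base -32 of Ccl8 and base -31 of Ccl12. This motif occurs on either strand in 13.6% of the 32544 promoter windows of the same length. The AP-1 letters TGANTCA (7.79% of windows), the NF-kappaB letters GGGA, any base, TT, any base, CC (1.17%) and the Blimp1 core GTGAAAG (4.24%) had no match on either strand in the 3 windows. The Blimp1 and TATA letters were added after results of these data were known. No match says only that these letters are not in these windows.

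The receptor gene was highest in ILC2 and in male VAT Treg. Ccl2 was highest in stroma, adipocytes and male whole VAT, and Ccl7 in GP38-positive stroma, male whole VAT and adipocytes. Ccl8 and Ccl12 had their highest group means in VAT Treg labelled Blimp1-deficient, at 66.8 and 5.35 CPM. In ILC2, cells known to make type 2 cytokines, Ccr2 was at 3632 and 3131 CPM in males and at 3560 and 3028 CPM in females. The sexes overlapped, with a log2 fold change of 0.10 for male over female (SE 0.38, adjusted p = 1), in a comparison where 0.0375% of 13332 genes were called. ILC2 and stroma were prepared with another library kit than the T cells and fat, so levels between them are set side by side without a test.

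In VAT Treg, Ccr2 was at 1825 and 1373 CPM in males and at 192 and 355 CPM in females. Both male libraries lay above both female ones. The log2 fold change for male over female was 2.71 (SE 0.33, edgeR adjusted p = 0.000118), and Ccr2 was the only one of the 5 members called, where 1.61% of all 17340 genes tested were. In spleen Treg, Ccr2 was at 89.4 and 131 CPM in males and at 84.5 and 123 CPM in females, which overlapped (log2 fold change 0.17, SE 0.31, adjusted p = 1; 0.075% of genes called). The difference between these sex effects, tested as an interaction, was 2.54 on the log2 scale (SE 0.44, adjusted p = 0.00763), with 0.531% of genes called. That call ended without spleen Treg male 1 (2.29, adjusted p = 0.0926) or without VAT Treg female 1 (2.19, adjusted p = 0.0682).

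VAT CD4 cells stood between. Their Ccr2 level was 478 and 344 CPM in males, and 248 and 191 CPM were found in females. The male libraries lay above the female ones, but the log2 fold change of 0.83 (SE 0.31) did not pass the test (adjusted p = 0.224; 1.48% of genes called). The sex effect in Treg minus that in CD4 cells was 1.88 (SE 0.44, adjusted p = 0.097), which missed the threshold, where 0.317% of genes were called. Within males, Ccr2 was higher in Treg than in CD4 cells of VAT by 2.04 (SE 0.32, adjusted p = 0.00106; 2.43% called). Within females the difference was 0.16 (SE 0.31, adjusted p = 0.887; 3.54% called).

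Between organs, Ccr2 was higher in VAT than in spleen Treg of both sexes. In males the log2 fold change was 3.92 (SE 0.35, adjusted p = 1.34e-06; 6.56% of genes called). In females it was 1.38 (SE 0.31, adjusted p = 0.03; 1.71% called), and this call ended without VAT Treg female 2 (0.92, adjusted p = 0.342) or spleen Treg female 1 (1.15, adjusted p = 0.28). These comparisons use the same VAT Treg libraries as the sex comparison. B cell markers summed to 4876 to 5001 CPM in male and 5261 to 5528 CPM in female spleen Treg. In VAT Treg they summed to 454 to 1162 CPM in males and 1886 to 3139 CPM in females. Neutrophil markers were also higher in spleen Treg, whereas ILC2, fibroblast, endothelial and mesothelial sums were higher in VAT Treg. The part of other cells' RNA in these organ differences was not tested.

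Markers of other cells moved with these values. The summed CPM of 6 genes listed for ILC2 (Il1rl1, Gata3, Klrg1, Il5, Il13 and Areg) was 7535 and 5473 in male VAT Treg, 671 and 567 in female VAT Treg, 5560 in the Foxp3cre VAT control and 5563 to 7397 in ILC2. None of the 6 was at 0 in VAT Treg of either sex, and Il1rl1, Gata3 and Klrg1 also mark VAT Treg. Il5, a cytokine gene typical of ILC2, was at 24.1 and 26.7 CPM in male VAT Treg, against 509 to 1512 CPM in ILC2. T cell markers summed to 2918 to 3015 CPM in male and 4222 to 4824 CPM in female VAT Treg. The sum of 14 monocyte and macrophage markers, cells that also use Ccr2, was 526 and 2119 CPM in male VAT Treg and 144 and 1203 CPM in female. It was 720 and 4256 CPM in male CD4 cells and 278 and 389 CPM in female ones. The library holding most of them was left out of male Treg, female Treg and male CD4 together. The male over female log2 fold change of Ccr2 in VAT Treg was then 3.44. The VAT Treg that remained still differed in these markers, at 526 CPM in males and 144 CPM in females. Such a fit cannot tell the part of macrophage RNA. The parts of macrophage and ILC2 RNA in the result were not tested.

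**Figure D1:**
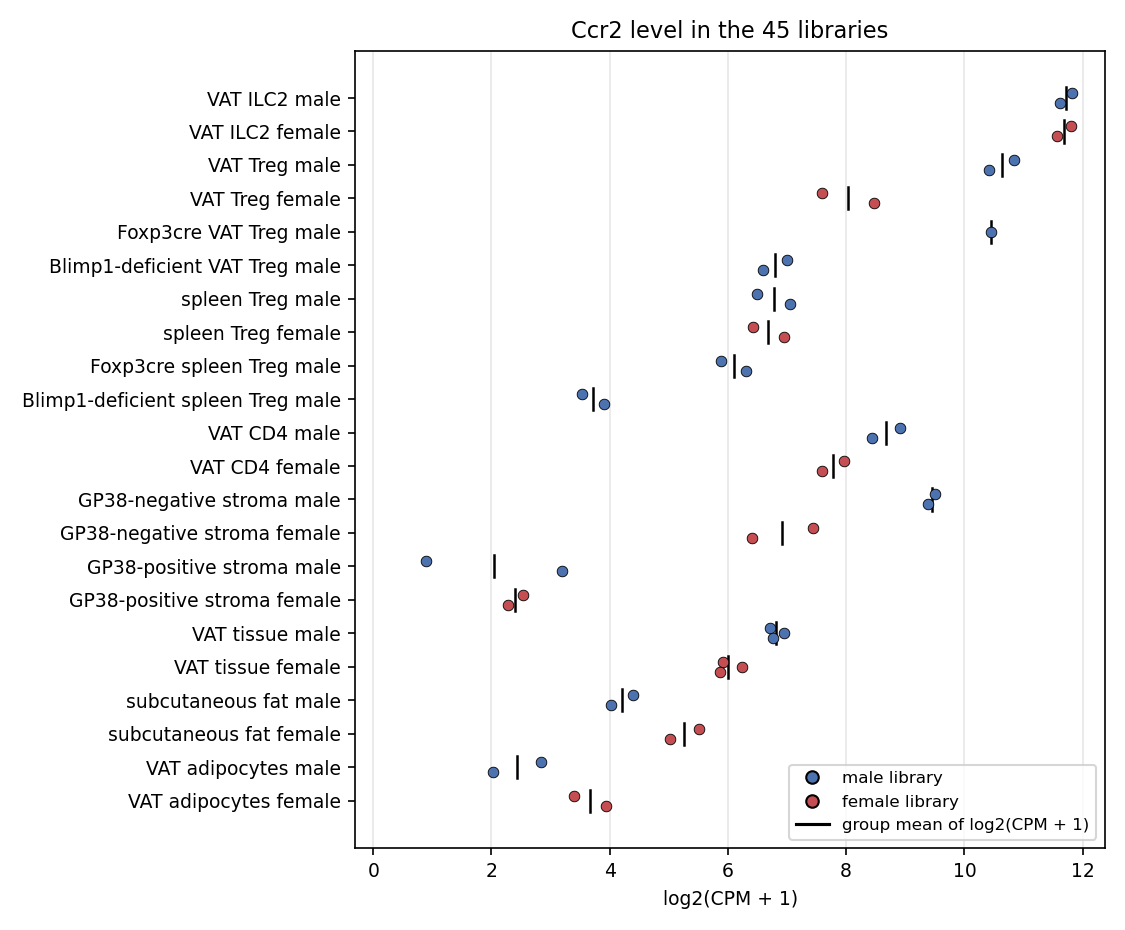
Ccr2 level in each library as log2(CPM + 1) on the x axis, with the 22 groups on the y axis; points are libraries (blue male, red female) and black lines are group means of the plotted values. ILC2 and male VAT Treg, including the Foxp3cre control at 1390 CPM, lie to the right, and GP38-positive stroma and adipocytes lie to the left.

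Blimp1 is encoded by Prdm1. Counts over the whole gene cannot check a deletion of some exons, and the Prdm1 level was 121 and 148 CPM in the VAT libraries labelled Blimp1-deficient against 73.1 CPM in the Foxp3cre one. In spleen it was 60.8 and 41.2 CPM against 25.0 and 16.3 CPM. Neither difference was called (adjusted p = 0.677 in VAT and 0.237 in spleen).

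Ccr2 was at 127.5 and 95.6 CPM in the VAT Treg labelled Blimp1-deficient and at 1390 CPM in the Foxp3cre VAT Treg. The log2 fold change was -3.67 (SE 0.37, adjusted p = 5.24e-05), with 0.819% of 17340 genes called. The single control is assumed in this fit to vary like the other groups. In spleen Treg, Ccr2 was at 10.6 and 14.0 CPM in the libraries labelled Blimp1-deficient and at 58.1 and 78.5 CPM in the controls, with no overlap. Its log2 fold change there was -2.51 (SE 0.33, adjusted p = 0.00117; 0.317% called), and the call ended without Blimp1-deficient spleen Treg male 1 (-2.36, adjusted p = 0.0717). Foxp3 in these spleen libraries was at 92.0 and 131 CPM in those labelled Blimp1-deficient and at 145 and 30.7 CPM in the controls. The same spleen libraries also differed in other cells' markers. The macrophage sum was 110.4 to 186 CPM against 373 to 725 CPM in the controls, the B cell sum 1360 to 1374 against 2645 to 6119 CPM, and the neutrophil sum 4.05 to 15.8 against 149 to 366 CPM. Their part in the Ccr2 value was not tested. The genotype effects in VAT and spleen differed by -1.16 (SE 0.48, adjusted p = 0.616), which did not pass the test, where 0.358% of genes were called.

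Ccr2 was still higher in VAT than in spleen among Treg labelled Blimp1-deficient, by 3.07 on the log2 scale (SE 0.34, adjusted p = 5.62e-05; 1.26% called). The 14 macrophage markers, summing to 1023 to 1240 CPM in VAT and 110.4 to 186 CPM in spleen of these mice, had a median log2 fold change of 3.02 there, with 1 called higher; their part was not tested. Set against female reporter VAT Treg, these male cells had a log2 fold change of -1.20 (SE 0.31, adjusted p = 0.248; 0.0461% called), although both of their libraries lay below both female ones; with DESeq2 it was called (-1.23, adjusted p = 0.0229). The Foxp3cre control and male reporter VAT Treg had a log2 fold change of -0.24 (SE 0.38, adjusted p = 1; 0.0173% called), a comparison of mice that differ in their Foxp3 allele. The 6 ILC2 genes summed to 685 and 599 CPM in the VAT Treg labelled Blimp1-deficient and to 5560 CPM in the control, moving with Ccr2.

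The ligand genes had no reads in most spleen Treg libraries. Ccl2 and Ccl7 had 0 reads in all 8, which allows at most 0.0485 to 0.197 CPM (3 reads of the total, counting error only). Ccl8 was at 3.15 CPM in spleen Treg male 1 and Ccl12 at 2.24 CPM in spleen Treg female 2, and each had 0 reads in the other libraries of spleen. In VAT T cells the ligands spread widely within groups. Ccl2 was at 1.50 and 12.9 CPM in male VAT Treg, at 0 and 11.9 CPM in female VAT Treg, and at 3.19 and 37.3 CPM in male VAT CD4 cells. In each of these groups the second library held both more Ccl2 and more macrophage markers. Fibroblast markers also spread within them, at 449 to 1532 CPM in male and 166 to 1835 CPM in female VAT Treg. In male VAT CD4 cells they were at 323 to 1829 CPM. The parts of macrophage and fibroblast RNA in these values were not tested.

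Ccl8 was at 81.9 and 51.6 CPM in VAT Treg labelled Blimp1-deficient and at 4.81 CPM in the Foxp3cre control. The log2 fold change of 3.76 (SE 2.58) did not pass the test (adjusted p = 0.807), but was called when only the groups compared were fitted (3.76, adjusted p = 0.0183). Macrophage markers summed to 1240 and 1023 CPM in the former and to 799 CPM in the latter. In ILC2, Ccl2 was at 0.356 to 3.57 CPM, and Ccl7, Ccl8 and Ccl12 did not pass the filter on low counts. Ccl12 was nevertheless at 4.13 CPM in ILC2 male 1, the library with 156 CPM of macrophage markers against 16.2 to 23.8 CPM in the others; the part of macrophage RNA was not tested.

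In sorted stroma the ligands differed in which fraction held them. GP38, or podoplanin, marks fibroblast-type stroma. Ccl7 was at 51.8 and 61.4 CPM in male and at 71.7 and 77.2 CPM in female GP38-positive stroma. In GP38-negative stroma it was at 12.6 and 11.6 CPM in males and at 8.36 and 8.97 CPM in females. The fractions did not overlap, and Ccl7 was higher in GP38-positive cells by 2.41 in males (SE 0.25, adjusted p = 0.000773) and by 3.36 in females (SE 0.26, adjusted p = 0.000309). Of the 5 members, Ccl7 and Ccr2 were called in both sexes, where 28.7% of 16413 genes were called in males and 24.9% in females.

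Ccl2 was at 63.7 and 72.1 CPM in male and at 35.6 and 40.8 CPM in female GP38-positive stroma. Both male libraries lay above both female ones, but the log2 fold change of 0.82 (SE 0.58) was not called (adjusted p = 0.872). In GP38-negative stroma Ccl2 was at 61.9 and 15.0 CPM in males and at 25.6 and 35.9 CPM in females, which overlapped. Its GP38-positive over GP38-negative log2 fold change was 1.01 in males (SE 0.59, adjusted p = 0.231) and 0.57 in females (SE 0.58, adjusted p = 0.519). The male value was 2.35 and called (adjusted p = 0.00403) without GP38-negative stroma male 1, and 0.33 without male 2. No member was called between the sexes in either fraction, where 0.335% of genes were called in GP38-positive and 0.89% in GP38-negative stroma. No member's sex effect was called as different between the fractions either, where 0.213% of genes were; for Ccl7 the difference was -0.95 (SE 0.34, adjusted p = 0.346).

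Ccl8 in GP38-positive stroma was at 2.37 and 7.97 CPM in males and at 17.9 and 25.7 CPM in females, without overlap (log2 fold change -2.08, SE 1.29, adjusted p = 0.806). In GP38-negative stroma it ranged from 2.29 to 45.1 CPM over the 4 libraries. Ccl12 had 0 reads in 5 of the 8 stromal libraries, against at most 4.18 CPM in the others. The receptor gene was low in GP38-positive stroma, at 0.851 to 8.11 CPM. It was lower there than in GP38-negative stroma by -7.05 in males (adjusted p = 0.00238; -9.51 without GP38-positive stroma male 2, -6.25 without male 1) and -4.63 in females (adjusted p = 0.00953), the latter not called without GP38-positive stroma female 1 (-4.84, adjusted p = 0.0658) or female 2 (-4.52, adjusted p = 0.0775). In GP38-negative stroma Ccr2 was at 725 and 670 CPM in males and at 172 and 83.5 CPM in females. The sexes did not overlap there, and the log2 fold change of 2.51 (SE 0.79) did not pass the test (adjusted p = 0.208). T cell markers in the same libraries summed to 740 and 856 CPM in males and to 169 and 214 CPM in females, and macrophage markers to 826 to 1281 CPM in males and 564 to 592 CPM in females; their part in the Ccr2 level was not tested.

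In whole VAT the receptor and its main ligand were higher in males. Ccl2 was at 29.7, 47.8 and 36.8 CPM in the 3 male libraries and at 7.78, 8.60 and 15.2 CPM in the 3 female libraries. Every male library lay above every female one, and the log2 fold change was 1.84 (SE 0.31, adjusted p = 0.00148). Ccr2 was at 104, 122 and 107 CPM in males and at 59.4, 74.6 and 57.1 CPM in females, again without overlap, with a log2 fold change of 0.78 (SE 0.20, adjusted p = 0.0213). These were the 2 members called of 5, in a comparison where 13.1% of 16917 genes were. The Ccr2 call ended when any one of 5 of the 6 libraries, all except VAT tissue female 2, was left out, with log2 fold changes of 0.70 to 0.88 and adjusted p up to 0.0855 over the 6.

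Ccl7 was at 28.0, 39.5 and 35.2 CPM in male whole VAT and at 14.0, 16.5 and 21.1 CPM in female whole VAT. The groups did not overlap, and the log2 fold change of 0.97 (SE 0.30) lay at the threshold (adjusted p = 0.0501). It passed with DESeq2 size factors (0.99, adjusted p = 0.0475), with no filter on low counts (0.97, adjusted p = 0.0244) and with DESeq2 (0.99, adjusted p = 0.0137). It stayed uncalled in edgeR when any one of the 6 libraries was left out (0.86 to 1.13, adjusted p from 0.0596 to 0.153). Ccl8 was at 20.7, 7.22 and 13.6 CPM in males and at 5.84, 18.8 and 8.10 CPM in females, which overlapped (log2 fold change 0.34, SE 0.58, adjusted p = 0.785). Ccl12, at 0.882 to 1.29 CPM in males and 1.33 to 2.48 CPM in females, was the one ligand with its higher libraries in females (-0.88, SE 0.39, adjusted p = 0.179).

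Whole fat mixes cell types, and in bulk samples fewer cells of a type and less RNA per cell cannot be told apart. The 14 monocyte and macrophage markers summed to 2414 to 2670 CPM in male and to 894 to 1034 CPM in female whole VAT. Of the 14, 9 were called higher in males and 0 lower. Their part in the Ccr2 and Ccl2 differences was not tested. In GP38-positive stroma these markers summed to 47.0 to 155 CPM in males and 58.8 to 78.8 CPM in females. The Ccl2 difference between the sexes given above for that stroma was not called, and the part of these markers in it was not tested.

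**Figure D2:**
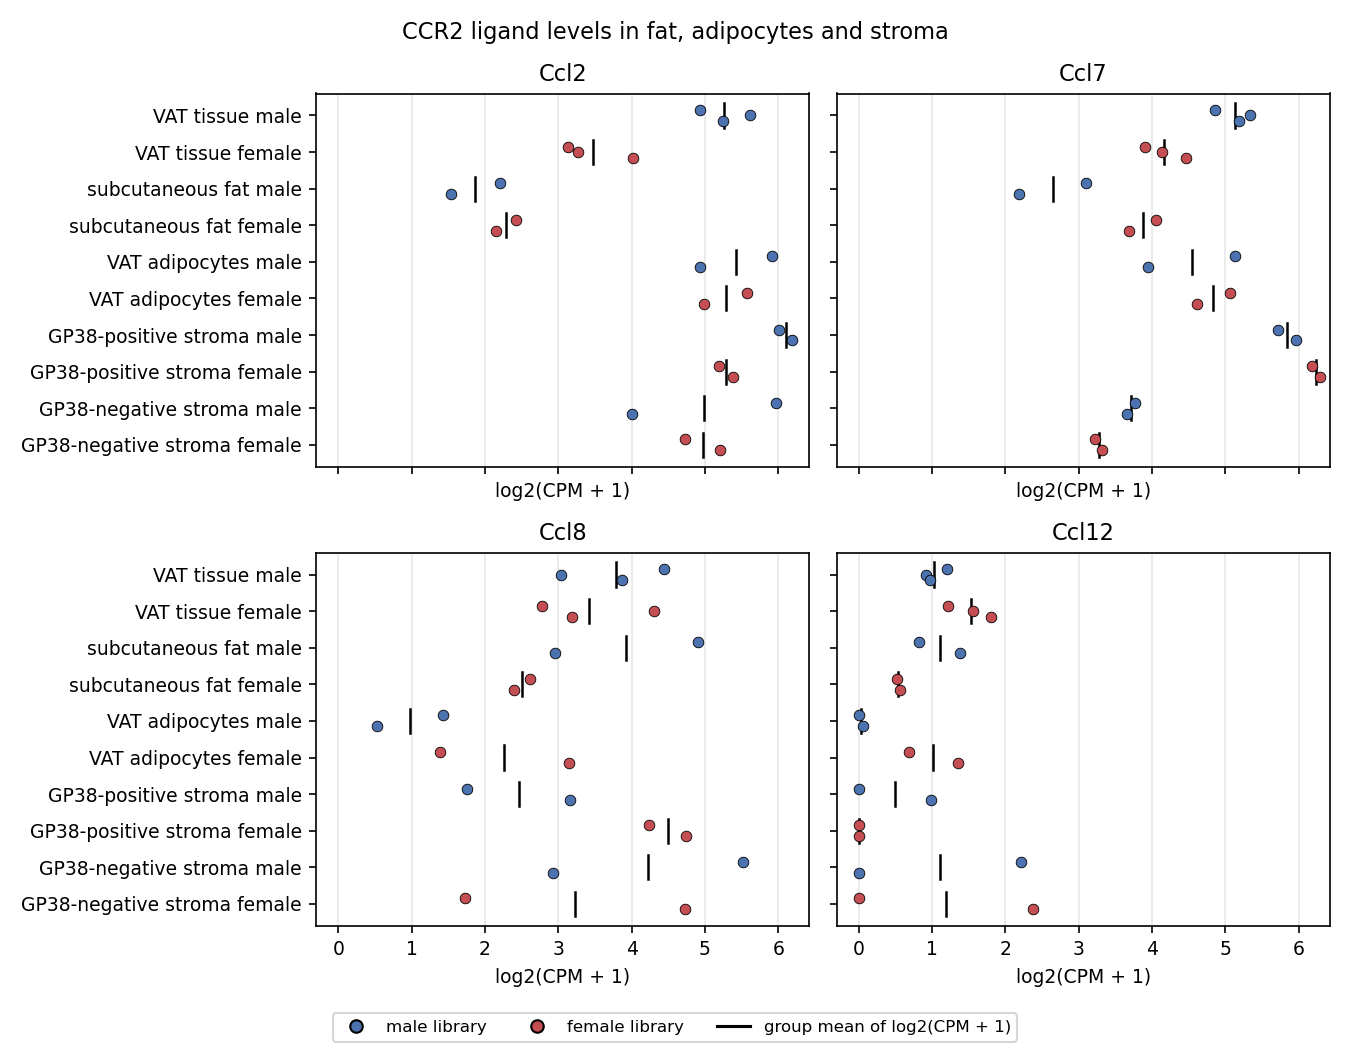
Levels of the 4 ligand genes as log2(CPM + 1) on the x axis in whole fat, adipocytes and stroma on the y axis; points are libraries (blue male, red female) and black lines are group means of the plotted values. Ccl2 in whole VAT separates the sexes, Ccl7 is highest in GP38-positive stroma at up to 77.2 CPM, and Ccl12 stays at or below 4.18 CPM.

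In subcutaneous fat the receptor gene went the other way. Ccr2 was at 20.0 and 15.3 CPM in males and at 44.6 and 31.4 CPM in females. The log2 fold change was -0.88 (SE 0.26, adjusted p = 0.0331), with 16.5% of genes called, and the call ended without subcutaneous fat female 1 (-0.52, adjusted p = 0.26) or male 2 (-0.67, adjusted p = 0.151). Macrophage markers there summed to 352 to 651 CPM in males and 485 to 571 CPM in females. The ILC2 genes summed to 3.53 to 10.5 CPM in males and 33.8 to 120.7 CPM in females. Mast cell and eosinophil markers were at 15.9 to 16.5 and 43.4 to 77.8 CPM, and mesothelial markers at 1.98 to 3.64 and 145.6 to 397.3 CPM. Sums of the other marker lists overlapped between the sexes. The part of these cells in the Ccr2 difference was not tested. None of the 4 ligand genes was called there with edgeR; with DESeq2, Ccl7 (-1.06, adjusted p = 0.0379) and Ccl12 (1.605, adjusted p = 0.0284) were.

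Ccl2 in subcutaneous fat was at 3.59 and 1.91 CPM in males and at 4.34 and 3.45 CPM in females, which overlapped (-0.26, SE 0.45, adjusted p = 0.764). Ccl7 was at 7.56 and 3.56 CPM in males and at 15.6 and 11.9 CPM in females (-1.06, SE 0.40, adjusted p = 0.0876). Ccl8 was at 28.8 and 6.77 CPM in males and at 5.09 and 4.24 CPM in females (2.18, SE 0.75, adjusted p = 0.0633), a difference that was 0.71 without subcutaneous fat male 1 and 2.88 (adjusted p = 0.0181) without male 2.

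The sex effect in whole VAT minus that in subcutaneous fat was called for 4 of the 5 members, where 16% of genes were called. It was 1.66 for Ccr2 (SE 0.33, adjusted p = 0.0048), 2.09 for Ccl2 (SE 0.55, adjusted p = 0.0205), 2.03 for Ccl7 (SE 0.50, adjusted p = 0.015) and -2.48 for Ccl12 (SE 0.66, adjusted p = 0.022). The Ccl2 and Ccl7 calls ended without subcutaneous fat female 1 (1.83 and 1.74) or male 2 (1.70 and 1.58). The Ccl12 call ended when any one of 6 of the 10 libraries was left out, with adjusted p up to 0.0843: VAT tissue female 3, VAT tissue male 2 or 3, subcutaneous fat female 1 or 2 or male 2. Whole VAT and subcutaneous fat carry separate library numbering, so depot and handling cannot be told apart.

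Within males, whole VAT held more Ccr2 (2.36, adjusted p = 9.08e-06), Ccl2 (3.47, adjusted p = 2.38e-05) and Ccl7 (2.31, adjusted p = 0.000263) than subcutaneous fat, where 49.8% of genes were called. Within females, Ccr2 (0.71, adjusted p = 0.0402), Ccl2 (1.38, adjusted p = 0.0188) and Ccl12 (2.05, adjusted p = 0.00887) were called higher in VAT, against 24.6% of genes. These 3 female calls each ended when one or another library was left out, with adjusted p up to 0.296 for Ccr2 (0.43, without subcutaneous fat female 2), 0.127 for Ccl2 (1.18, without the same library) and 0.0672 for Ccl12 (2.03, without subcutaneous fat female 1). A log2 fold change of 0.28 left Ccl7 uncalled in females (adjusted p = 0.594). Macrophage markers were also higher in male whole VAT than in male subcutaneous fat, with 13 of the 14 called, and in females 10 were called higher and 1 lower.

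Adipocytes carried the ligands Ccl2 and Ccl7 with little receptor. Ccl2 was at 59.2 and 29.5 CPM in male and at 46.6 and 30.8 CPM in female adipocytes, and Ccl7 at 34.2 and 14.5 CPM and at 32.3 and 23.4 CPM. The sexes overlapped for both, with log2 fold changes of 0.40 for Ccl2 (SE 0.38, adjusted p = 0.452) and 0.00 for Ccl7 (SE 0.39, adjusted p = 1). Ccr2 was at 6.14 and 3.07 CPM in males and at 9.48 and 14.4 CPM in females (-1.33, SE 0.33, adjusted p = 0.00721). Ccr2 and Ccl12 were the 2 members called, against 35.3% of genes.

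The Ccr2 call in adipocytes ended without VAT adipocytes female 2 (-0.92, adjusted p = 0.181) or male 2 (-0.85, adjusted p = 0.102). In these libraries macrophage markers summed to 171 and 228 CPM in males and to 341 and 467 CPM in females. The Ccl12 call rests on 1 read in the 2 male libraries and 29 reads in the 2 female ones. As rates these stood at a ratio of 0.0209, with an exact 95% counting interval of 0.000511 to 0.126.

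Set against whole VAT, female adipocytes held more Ccl2 by 2.00 on the log2 scale (SE 0.35, adjusted p = 0.000926; 33.5% of genes called), whereas in males the difference was 0.57 (SE 0.34, adjusted p = 0.181; 48% called). The sex effect in whole VAT minus that in adipocytes was 1.44 for Ccl2 (SE 0.49, adjusted p = 0.0421), and 2.104 for Ccr2 (SE 0.39, adjusted p = 0.00142). For Ccl12 it was 4.21 (SE 1.07, adjusted p = 0.0099), on the few reads given above; 30.7% of genes were called. The Ccl2 call ended when any one of 6 of the 10 libraries was left out: VAT tissue female 1 or 2, VAT tissue male 2 or 3, VAT adipocytes female 1 or male 2, with log2 values down to 1.02 and adjusted p up to 0.179. Ccr2 was lower in adipocytes than in whole VAT by -4.30 in males (adjusted p = 3.03e-07) and -2.20 in females (adjusted p = 6.97e-05). In males Ccl8 was also lower, by -3.52 (SE 0.91, adjusted p = 0.00644; -2.70 and 0.0974 without VAT adipocytes male 2), and Ccl12 was at 1 read against 142 in whole VAT. The Ccl8 and Ccl12 differences in females, -0.83 and -0.52, were not called. Of the 14 macrophage markers, 12 were called lower in adipocytes than in whole VAT of males, and 11 lower and 1 higher in females. Of 14 tested genes for inducers of Ccl2 and the NF-kappaB pathway, 8 were called higher and 1 lower in adipocytes of males. In females 10 were called higher and 0 lower. Their part in the Ccl2 values was not tested. Adipocytes and whole VAT carry separate library numbering, so fraction and handling cannot be told apart.

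**Figure D3:**
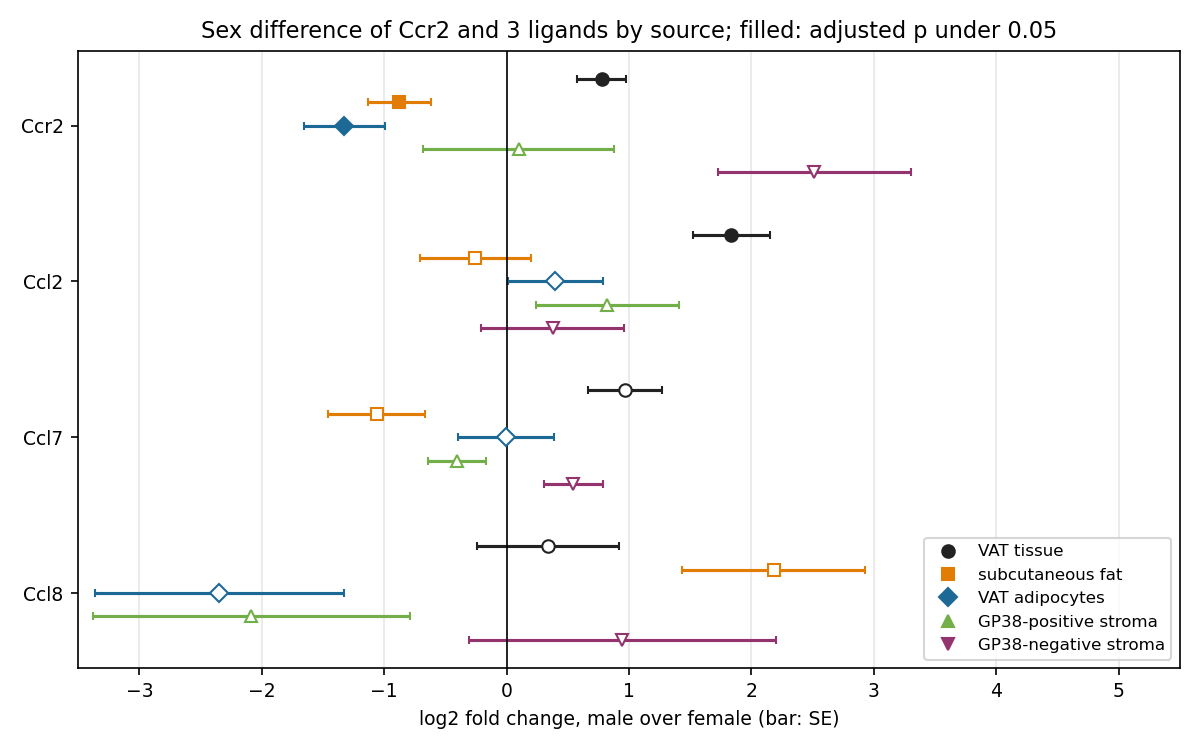
Male over female log2 fold change (x axis, bars are SE) of Ccr2, Ccl2, Ccl7 and Ccl8 (y axis) in whole VAT, subcutaneous fat, VAT adipocytes and both stromal fractions; filled symbols have an adjusted p under 0.05. Ccr2 is above 0 in whole VAT at 0.78 and below 0 in subcutaneous fat at -0.88 and adipocytes at -1.33, and Ccl2 is called in whole VAT at 1.84.

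Levels of different genes can be set against each other only per transcript length, for which the deposited log2 FPKM were used. In male whole VAT, Ccl2 stood at 5.20, 5.88 and 5.51, Ccl7 at 5.12, 5.60 and 5.46, and Ccl12 at 1.15, 0.60 and 0.73 on the log2 FPKM scale. In male VAT the pair was thus level, with a Ccl2 minus Ccl7 difference within a library of 0.085, 0.28 and 0.057. In female VAT it was -0.90, -1.01 and -0.46, so Ccl7 exceeded Ccl2 in all 3 libraries. The mean difference was 0.14 ± 0.12 (SD, n = 3) in males and -0.79 ± 0.29 (SD, n = 3) in females. They did not overlap, and an exact permutation test, two-sided, gave p = 0.1, the smallest that 3 against 3 libraries allow.

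The same order appeared in 3 other sources. In GP38-positive stroma the Ccl2 minus Ccl7 difference was 0.27 and 0.20 in males and -0.98 and -0.84 in females. In subcutaneous fat it was -0.88 and -0.82 in males and -1.83 and -1.83 in females. In adipocytes it was 0.81 and 1.02 in males and 0.56 and 0.42 in females. In these 3 sources both male libraries lay above both female ones, and the exact permutation p of 0.333 is the smallest that 2 against 2 allow. In GP38-negative stroma the male libraries, at 2.31 and 0.36, lay on both sides of the female ones, at 1.76 and 2.13. The difference was computed after earlier results were known, and a ratio within a library shows unequal change of the pair, not which gene changed.

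**Figure D4:**
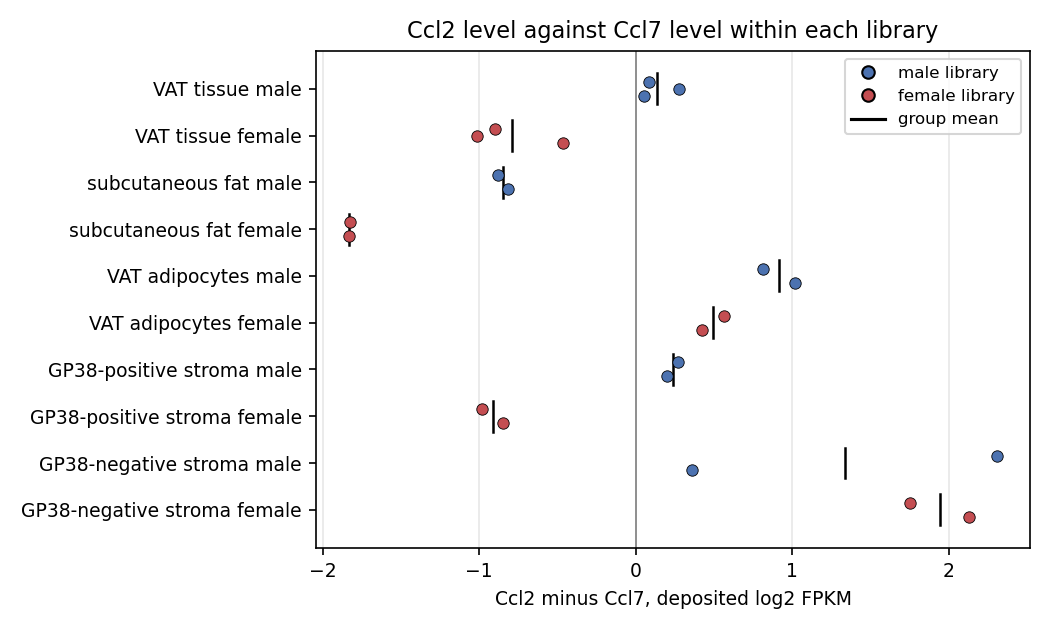
Ccl2 minus Ccl7 in deposited log2 FPKM (x axis) for each library of whole fat, adipocytes and stroma (y axis); points are libraries (blue male, red female) and black lines are group means. Male libraries lie to the right of female ones in every source but GP38-negative stroma, with whole VAT means of 0.14 and -0.79.

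Related genes were described as lists chosen with earlier results known. Of 6 CC chemokine receptor genes near Ccr2 or binding its ligands, 1 was called higher in male than in female VAT Treg and 0 lower, with a list median of 0.77 against -0.036 for all genes. That gene was Ccr3, the eotaxin receptor encoded on the same chromosome, at 357 and 233 CPM in males, and 31.4 and 42.8 CPM were found in females (3.15, SE 0.72, adjusted p = 0.0315). Ccr3 was also called lower in VAT Treg labelled Blimp1-deficient, at 8.34 and 4.88 CPM against 273 CPM (-5.40, SE 0.85, adjusted p = 0.00369).

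Of 13 tested of 14 other CC ligand genes, 0 were called in either direction between the sexes in VAT Treg, with a median of 0.092. Of 15 genes for signalling below CCR2, among them G protein, arrestin and kinase subunits, 0 were called there (median 0.35). Of 15 genes for inducers of Ccl2 and the NF-kappaB pathway, 3 were called higher in male VAT Treg and 0 lower (median 0.26). They were Nfkbia, an inhibitor of NF-kappaB (1.89, SE 0.25, adjusted p = 0.000294), Ifngr1, a subunit of the interferon gamma receptor (1.14, adjusted p = 0.0129), and Tnfaip3, which restrains NF-kappaB (1.64, adjusted p = 0.039). Nfkbia and Tnfaip3 are also known to respond to cell activation.

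In whole VAT, where 13.1% of all genes were called between the sexes against 1.61% in VAT Treg, more list genes were called. Receptor genes were called higher in males for 2 of 6, among them Ccr3 (2.74, adjusted p = 0.00105). Among other CC ligands 4 of 11 tested were called higher, led by Ccl9 (1.89, adjusted p = 0.00121), Ccl3 (2.57, adjusted p = 0.00582) and Ccl6 (1.47, adjusted p = 0.00887). Signalling genes were called higher for 6 of 15, led by Pik3r5, a regulatory subunit of a G protein-coupled kinase (1.86, adjusted p = 8.31e-07). Inducer and NF-kappaB genes were called higher for 4 of 14, led by Tnfaip3 (0.69, adjusted p = 0.00308). None of these lists had a gene called lower. Of the 14 macrophage markers, 9 were called higher in males in the same libraries and 0 lower. Among the 9 were Cd68 (2.65, adjusted p = 6.88e-06) and Adgre1 (2.30, adjusted p = 1.44e-05). The part of macrophage RNA in the values of these lists was not tested.

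In adipocytes 35.3% of all genes were called between the sexes, and 2 of 6 receptor genes and 5 of 14 macrophage markers are shares near it. Endothelial markers summed to 534 to 549 CPM in male and 2172 to 2400 CPM in female adipocytes, and fibroblast markers to 913 to 1031 and 1945 to 2651 CPM; their part in the values that follow was not tested. Receptor genes were called lower in males for 2 of 6, led by Ackr1, a scavenging chemokine receptor of vessels (-3.76, adjusted p = 7.54e-06). Other CC ligands were called lower for 5 of 11, led by Ccl11 (-1.83, adjusted p = 0.00118), and macrophage markers for 5 of 14, led by Cd163 (-2.72, adjusted p = 0.000153). Inducer and NF-kappaB genes were called lower for 5 of 14 and higher for 2, and Il6, a cytokine gene, was lower by -3.89 (adjusted p = 0.000233).

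Across the 19 T cell libraries, the 5 genes whose log2(CPM + 1) was most like that of Ccr2 were Padi2 (Pearson r 0.943), Ddx3x (0.928), Mmp9 (0.912), Cenpb (0.904) and Kctd12 (0.902). Across the 14 fat and adipocyte libraries, those most like Ccl2 were Tnfaip2 (0.959), Uvrag (0.953), Kcnj2 (0.939), Zfp36l2 (0.934) and Nt5dc2 (0.931). Tnfaip2, a gene induced by tumor necrosis factor, also headed the order for Ccl7 (0.950), followed by Crlf2 (0.931) and Nfkb2 (0.924). Ccl7 and Ccl2 had an r of 0.908 with each other, whereas Ccl8 had -0.365 with Ccl2. These libraries share source and kit within a group, so the values describe the groups as much as the libraries.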

How the data were processed

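The authors deposited a table of whole-number read counts for 27179 genes, and for each library a file of log2 FPKM values. The submitters' processing notes name GRCm38 and mm10 as builds, with Subread 1.6.2, limma and featureCounts as tools. How reads were aligned, the gene annotation and any strand setting were not given in the sources used here. The log2 FPKM were deposited in 4 separate sets (ILC2; T cells; whole fat; stroma with adipocytes), so they were compared only within a library. In the count table, 6 columns matched no sample used here and were left out.

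Members were found by symbol in the deposited log2 FPKM files and joined to the counts by identifier. The test was the two-sided quasi-likelihood F test of edgeR 4.0.16 (R 4.3.3), after TMM scaling and the filterByExpr low-count filter, with p adjusted by Benjamini-Hochberg over all genes tested. Separate models by group were fitted to the T cells (19 libraries), whole fat with adipocytes (14), stroma (8) and ILC2 (4). An SE was obtained as the absolute log2 fold change over the root of its F value. The code was tested on simulated data. CPM use all assigned reads without TMM factors.

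Libraries of a group that share a replicate number across groups were checked for pairing. Correlations of their deviations from the group means ran from -0.0798 to 0.355 and did not all exceed 0.1, so the numbers were not taken as pairs. Replicates of a group differed beyond sampling noise in every pair. The GP38-positive male titles carry 2 conflicting replicate numbers. Members and lists were chosen with earlier results of these data known. Of the lists, counts in each direction and up to 3 called genes with the smallest adjusted p per comparison are named. Some genes of these lists are not reported here. Genes most like a member were the 5 with the highest Pearson r, leaving out gene models and immunoglobulins. Alternatives were other size factors (those of DESeq2 1.42.0, or none), no low-count filter, DESeq2, a replicate block, only the groups compared, and leaving out each library.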

Additional observations from a re-analysis of the deposited data

Results flagged for a closer look

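For 8 results the sex effect differed between sources by an interaction test in edgeR. In T cells, the male over female log2 fold change of Ccr2 was larger in VAT Treg than in spleen Treg by 2.54 (adjusted p = 0.00763). Between whole VAT and subcutaneous fat, the sex effect differed by 1.66 for Ccr2, 2.09 for Ccl2, 2.03 for Ccl7 and -2.48 for Ccl12. Between whole VAT and VAT adipocytes it differed by 2.104 for Ccr2, 1.44 for Ccl2 and 4.21 for Ccl12. The Ccl12 value against adipocytes rests on 142 reads in male whole VAT and 1 in male adipocytes, and that against subcutaneous fat on 60 reads in male and 35 in female subcutaneous fat. Of the 14 macrophage markers, 9 were called higher in males in whole VAT, where 13.1% of genes were called, and 5 lower in adipocytes, a share near the 35.3% of genes called there; their part in these differences was not tested. Groups of 2 or 3 libraries are too small to test any single library as standing apart.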

How the results depend on the processing

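Over 62 results and 700 alternatives, 612 kept direction and side of the threshold, 49 lost the call, 22 gained it and 17 changed sign. The cause of each change was not tested, except that fitting only the groups compared leaves fewer libraries to estimate the spread. With only the groups compared, adjusted p was 0.17 for Ccr2 between the sexes in VAT Treg (2.75), 0.185 for VAT versus spleen in females (1.38), 0.333 for Treg versus CD4 in males (2.02), 0.0692 for Blimp1 in spleen (-2.52), 0.125 for the VAT minus spleen sex effect (2.56) and 0.0856 for subcutaneous fat (-0.88). That fit called 0 genes in VAT Treg, although 1677 had an unadjusted p under 0.05; the fit over all T cells called 280 and DESeq2 547.

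Replicate numbers were not taken as pairs. For Treg and CD4 cells of VAT the correlation of deviations was 0.246 in males and -0.0748 in females. Whether those cells came from the same pools was not tested. With a replicate block, Ccr2 in female VAT versus spleen Treg lost its call (1.38, adjusted p = 0.0611) and Ccl7 in whole VAT gained one (1.00, adjusted p = 0.0325). The calls between the sexes in VAT Treg went from 280 to 263.

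Ccl7 in whole VAT was also called with DESeq2 size factors (0.99), no TMM factors (0.99), no low-count filter (0.97), DESeq2 (0.99) and only the groups compared (0.98). Leaving out any one library left it uncalled. The sex effect of Ccr2 in VAT Treg minus CD4 was called with no filter (1.87, adjusted p = 0.0152) and with DESeq2 (1.84, adjusted p = 0.00834). Leaving out the 3 libraries richest in macrophage markers, an alternative chosen after seeing the data, gave 2.37 for it. These markers still differed between the sexes in the VAT Treg that remained. Without those 3 libraries, Ccr2 in female VAT versus spleen Treg was 0.93, and Treg versus CD4 in females turned to -0.30.

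Leaving out 1 library in turn, Ccr2 ran from 0.92 to 1.73 for VAT versus spleen in females, 2.19 to 3.00 for the VAT minus spleen sex effect, 1.53 to 2.34 for Treg minus CD4, -2.79 to -2.22 for Blimp1 in spleen, 0.70 to 0.88 for sex in whole VAT and -1.15 to -0.52 in subcutaneous fat. The VAT minus subcutaneous sex effect ran from 1.70 to 2.70 for Ccl2 and from 1.58 to 2.74 for Ccl7. Results near 0 changed sign: Ccr2 between the sexes in spleen (-0.14 to 0.44), in Treg versus CD4 of females (-0.30 to 0.51) and in Foxp3cre versus reporter Treg (-0.48 to 0.051); Ccl2 in subcutaneous fat (-0.86 to 0.13), adipocytes (-0.16 to 0.82) and GP38-negative stroma (-0.97 to 1.06); Ccl7 in adipocytes (-0.71 to 0.51) and in adipocytes versus whole VAT of males (-0.87 to 0.35); and Ccl8 in whole VAT (-0.078 to 0.96). Ccl7 in adipocytes also turned with DESeq2 size factors (0.0029), no filter (0.0043) and only the groups compared (0.024).

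Without TMM factors the log2 fold changes of Ccr2 shifted by -0.257 to 0.287. Adipocytes against whole VAT were not among the comparisons read for this range. TMM factors were 0.86 and 0.845 in male adipocytes, against 1.086 to 1.1 in male whole VAT. Between the sexes in VAT Treg the shift was -0.159, and the higher and lower calls went from 125 and 155 to 93 and 207. Groups of 2 libraries, and 1 Foxp3cre VAT library, limit every value here. Read counts limit Ccl12 most.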
